A study of Arabidopsis thaliana with 2 samples.

Results

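Of 147349 SNP windows with a match, 47712 reached 10 matches in both crosses and are called counted windows. Of these, 889 (1.86%) were matched by one accession only, with no match to the other accession version in either cross. In 645 of them (1.35%) all matches were to the Bur-0 version, and in 244 (0.511%) all were to the Col-0 version. The members were chosen by these allele counts, so the counts themselves are a description and were not tested.

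RNA from F1 seeds at 4 DAP (days after pollination) was sequenced for both directions of a cross between Col-0 and Bur-0, accessions of Arabidopsis thaliana, with the mother named first. Col-0×Bur-0 seeds had a Col-0 mother and a Bur-0 father, and Bur-0×Col-0 seeds had the reverse, called here the cross with the Col-0 mother and that with the Bur-0 mother, and both were whole seeds from emasculated, hand-pollinated flowers. Each cross is 1 library on 4 lanes, so differences between the crosses have no replicate check. The Bur-0×Col-0 library held 8576779 matches, between 1733892 and 2313110 per lane, and the Col-0×Bur-0 library held 6773239, between 1295748 and 1830948 per lane. Lane 1 of Col-0×Bur-0 stood apart, with 93.8% of its matches to Col-0 against 92.9% in lane 2, and it gave 27.0% of that library's matches.

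A seed is a composite of a seed coat that is wholly maternal tissue and of an embryo and an endosperm that carry both parental genomes. A SNP lets a read be given to a parent only where the parents truly differ at that base. Where the recorded base is not a difference, reads of both parents match the same version, and the total in each cross is that of the whole transcript. Where only one accession gives matches, the total is that accession's part, which is maternal in one cross and paternal in the other. The crosses therefore differ in what a total contains, while the bases themselves are not in the files and the cause was not tested for any single window.

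Each window is 71 nt long with the SNP in the middle, and a 36-nt read can start at 36 places that cover the SNP. A start is called free here when the read it begins covers no other matched SNP. Col-0 versions of overlapping windows hold the same sequence, so a Col-0 read over 2 SNPs is not unique and is not kept. Accordingly, 0 of 6704216 Col-0 matches covered more than 1 matched SNP, whereas 2138015 of 8645802 Bur-0 matches (24.7%) did. A window without a free start can therefore hold Bur-0 matches only.

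All 170 counted windows without a free start were Bur-0-only, which the matching fixes. They made up 26.4% of the Bur-0-only windows, and every match in them covered at least 2 matched SNPs, 26.9% covering 2 and 72.8% covering 3. A further 159 Bur-0-only windows had 1 to 35 free starts, and 316 (49.0%) had all 36 free. Of the Col-0-only windows, 0 had no free start, 32 had 1 to 35 and 212 (86.9%) had all 36. Among windows with all 36 starts free, 0.986% were Bur-0-only and 0.662% were Col-0-only. With 1 to 5 free starts the shares were 2.69% (95% Wilson interval 1.92% to 3.75%) and 0.0814% (0.0144% to 0.460%). Few free starts thus went with more Bur-0-only and fewer Col-0-only windows. The intervals cover counting error only, since neighbouring windows share transcripts and the reads, which carry no molecular identifiers, may copy the same molecule.

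**Figure D1:**
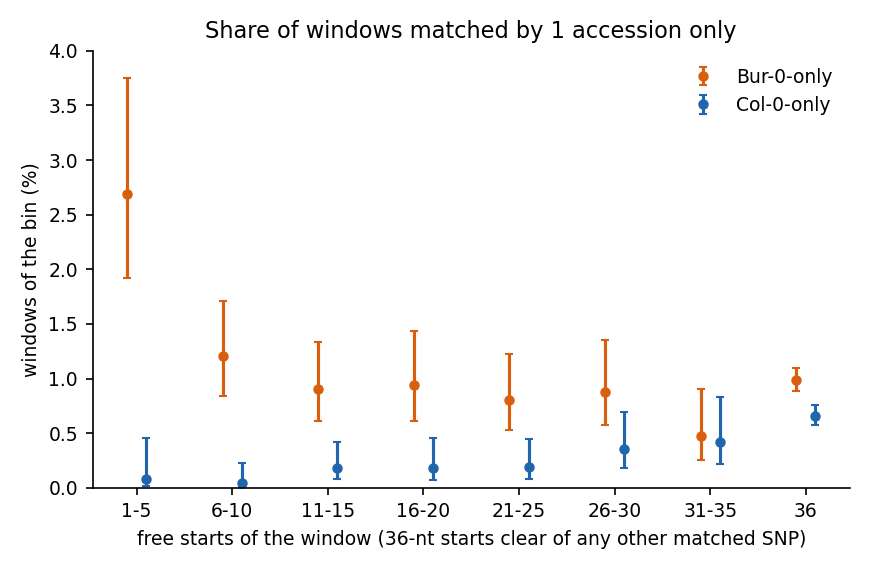
Share of the counted windows that were Bur-0-only (orange) or Col-0-only (blue), by the number of free starts, with 95% Wilson intervals. Bur-0-only windows fell from 2.69% at 1 to 5 free starts to 0.476% at 31 to 35 and were 0.986% where all 36 were free, and the 170 windows without a free start, all Bur-0-only, are not drawn.

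The next matched SNP lay close to Bur-0-only windows and farther from Col-0-only windows. The median distance was 31 nt for Bur-0-only windows, 122.5 nt for Col-0-only windows and 67 nt for all counted windows. It was at most 35 nt for 51.0%, 13.1% and 32.8% of them, and over 1000 nt for 8.06%, 13.9% and 6.16%. At the far end the shares of both classes were thus above that of all counted windows. The most isolated of the 10 deepest Bur-0-only windows, at 15671072 on chromosome 5, had its next matched SNPs 2239 and 4639 nt away. It held 1508 matches with the Bur-0 mother and 1492 with the Col-0 mother, on 27 combinations of start and strand. The most isolated of the 10 deepest Col-0-only windows, at 12558615 on chromosome 5, had its next matched SNPs 6131 and 15708 nt away and held 548 and 431 matches.

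The total matches of the crosses separated the Bur-0-only windows by their free starts. Totals were divided by the matches of each library, and ratios are given as log2 of Bur-0×Col-0 over Col-0×Bur-0, on which the median of all counted windows was -0.34. Bur-0-only windows without a free start had a median of 219.5 matches with the Bur-0 mother and 23.5 with the Col-0 mother. Their median ratio was 3.14, which is 8.83-fold higher with the Bur-0 mother. At least 2-fold more matches with the Bur-0 mother were found in 116 of the 170, against 9.96% of all counted windows, and at least 8-fold more in 90, against 0.891%. At least 8-fold more with the Col-0 mother was found in 1, against 0.39%. With 1 to 35 free starts the median ratio was -0.22, with 27 of 159 windows at least 2-fold higher with the Bur-0 mother, against 24.7% of all counted windows with as many free starts, and 24 with the Col-0 mother, against 9.14%. The Bur-0 mother gave at least 8-fold more in 11 of them, against 1.94%. Bur-0-only windows with all 36 starts free had medians of 29 and 33 matches and a median ratio of -0.49. Of these 316 windows, 231 (73.1%) lay within 2-fold, against 75.8% of all counted windows with all 36 starts free. At least 2-fold more was found in 16 (5.06%) with the Bur-0 mother, against 2.53%, and in 69 (21.8%) with the Col-0 mother, against 21.7%. At least 8-fold more was found in 3 with the Bur-0 mother, against 0.106%. Windows with matches of both accessions and all 36 starts free had a median ratio of -0.51. The rule asks for 10 matches of the one accession in each cross. It so keeps out windows whose matches to that accession came nearly all from one cross, and these ratios are a description within that limit.

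**Figure D2:**
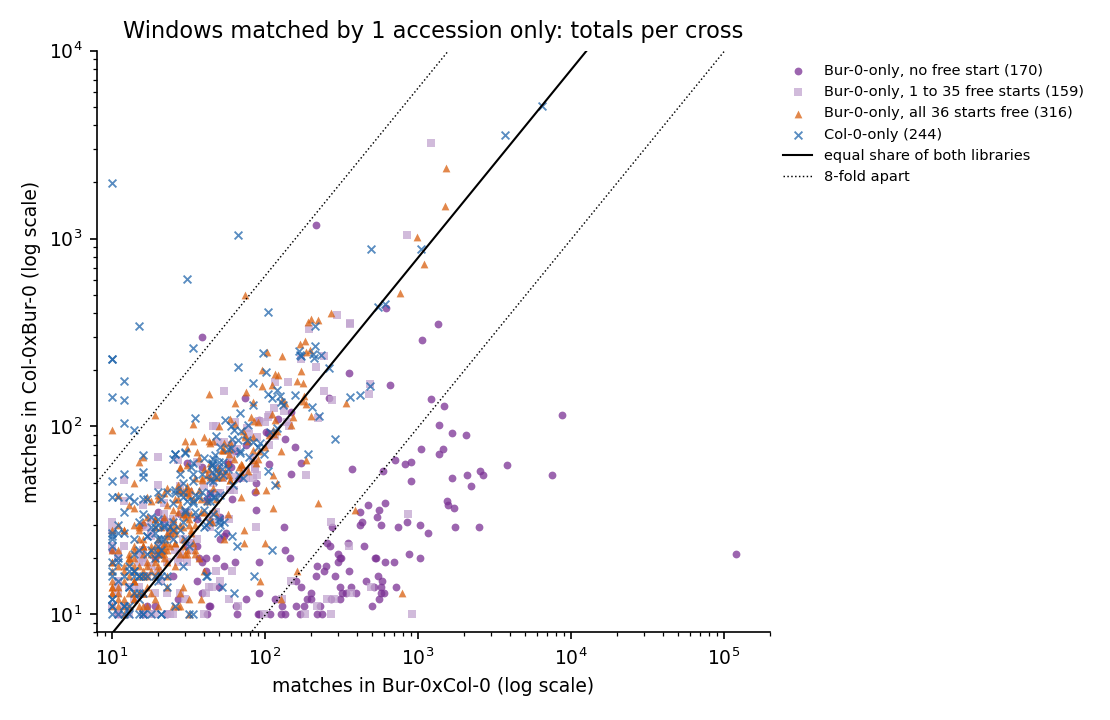
Matches of each of the 889 members in Bur-0×Col-0 (horizontal, log scale) and Col-0×Bur-0 (vertical, log scale), 1 point per window, with the line of equal shares of both libraries and dotted lines 8-fold to either side. Bur-0-only windows without a free start (purple) reach 120278 matches with the Bur-0 mother and 90 of the 170 lie past the lower dotted line. Of the 316 with all 36 starts free (orange), 231 (73.1%) lie within 2-fold of equal, against 75.8% of all counted windows with all 36 starts free.

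Col-0-only windows with all 36 starts free had medians of 31.5 and 41.5 matches and a median log2 ratio of -0.56. Of these 212 windows 149 (70.3%) lay within 2-fold, against 75.8% of all counted windows with all 36 starts free. At least 2-fold more was found in 52 (24.5%) with the Col-0 mother, against 21.7%, and in 11 (5.19%) with the Bur-0 mother, against 2.53%. At least 8-fold more with the Col-0 mother was found in 6 of them, and 0.44% of all counted windows with all 36 starts free passed that limit. The 32 with 1 to 35 free starts had a ratio of -1.11, and 18 of them were at least 2-fold higher with the Col-0 mother, and 6 at least 8-fold, against 0.284% of all counted windows with as many free starts. Leaving out lane 1 of both crosses gave median ratios of 2.97 for Bur-0-only windows without a free start, -0.50 for those with all 36 and -0.51 for Col-0-only windows with all 36.

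By the rule, every member has at least 10 matches to its accession also in the cross where that accession is the father. Matches to one accession were therefore compared in windows with both accessions under the same minimum. This limit was added after the data were seen. Without that minimum, the 46823 counted windows with both had Bur-0 matches a median of 45.8-fold higher with Bur-0 as mother than as father, and 17338 of them (37.03%) had 0 paternal Bur-0 matches. With at least 10 Bur-0 matches in each cross and all 36 starts free, 2372 windows were left, 7.53% of such windows with both, and the median was 7.17-fold. The excess was under 2-fold in 28.0% of these, and in 300 of the 316 Bur-0-only windows (94.9%) with all 36 starts free. With at least 10 Col-0 matches in each cross, 2781 windows were left, with a median excess of 10.6-fold with Col-0 as mother. It was under 2-fold in 17.9% of these, and in 160 of the 212 Col-0-only windows (75.5%) with all 36 starts free. Of the 170 Bur-0-only windows without a free start, 54 (31.8%) were under 2-fold. As Bur-0×Col-0 over Col-0×Bur-0, all counted windows with all 36 starts free had a median log2 ratio of -0.51. The 2-fold limit thus lay nearer to that median for Col-0 than for Bur-0, and the shares of Bur-0 and Col-0 are not like measures. These shares describe windows chosen by the same counts and were not tested.

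**Figure D3:**
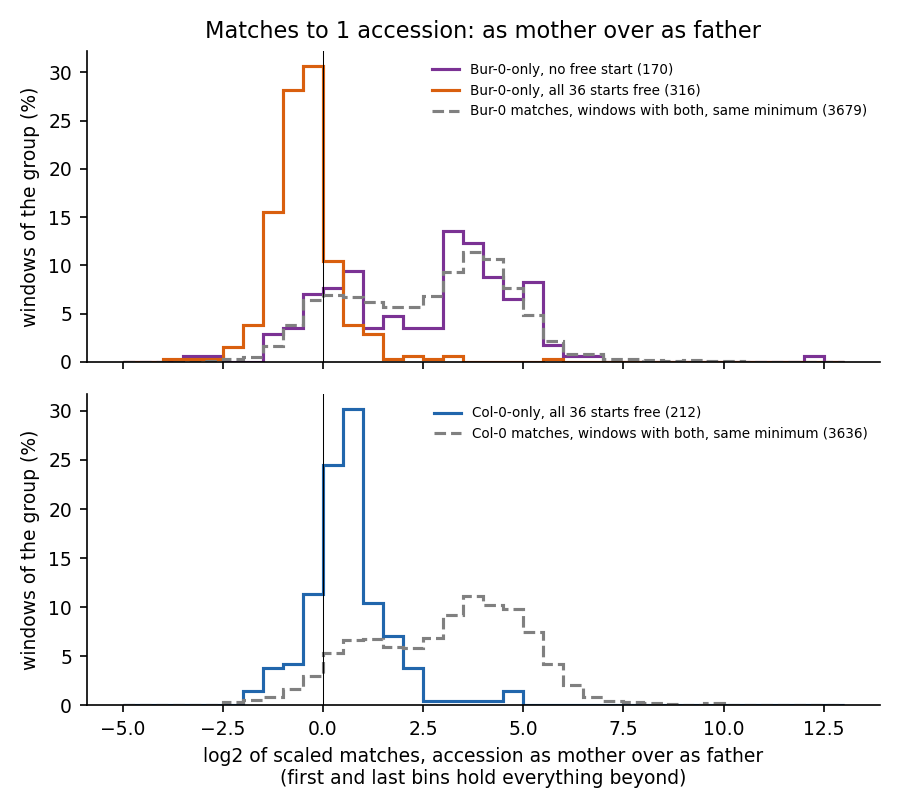
Histograms of the log2 ratio of scaled matches with the accession as mother over the same accession as father, in bins of 0.5, as percent of the windows of each group, for Bur-0 (top) and Col-0 (bottom). Members with all 36 starts free have medians of -0.49 and 0.56. Matches of the same accession in windows with both and the same minimum of 10 in each cross (dashed, any number of free starts) have medians of 2.95 and 3.36. As Bur-0×Col-0 over Col-0×Bur-0, the members' medians are -0.49 and -0.56, beside -0.51 for all counted windows with all 36 starts free.

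Each member was also set beside the nearest counted window with both accessions, 36 to 1000 nt away and with at least 10 matches of the member's accession in each cross. No read can be shared between them. For 132 Bur-0-only windows without a free start, the median log2 excess with the Bur-0 mother was 3.45. In their neighbours it was 0.25 for the total of both accessions and 3.67 for Bur-0 matches alone. Their ratio lay within 2-fold of the neighbour's Bur-0 ratio in 99 pairs and of the neighbour's total in 39. For 47 Bur-0-only windows with all 36 starts free, the member's value was -0.48, the neighbour's total -0.56 and the neighbour's Bur-0 matches -0.46. Here 38 pairs lay within 2-fold of the total and 36 within 2-fold of the Bur-0 ratio. For 26 Col-0-only windows with all 36 starts free, the excess with the Col-0 mother was 0.77, the neighbour's total 0.27 and the neighbour's Col-0 matches 0.62. Of these pairs, 15 lay within 2-fold of the total and 19 within 2-fold of the Col-0 ratio. For members with all 36 starts free, the neighbours' totals and one-accession matches thus cannot be told apart as the nearer ones. Without the minimum on the neighbour's matches, 73 of 91 pairs of Bur-0-only windows with all 36 starts free lay within 2-fold of the total and 31 within 2-fold of the Bur-0 ratio, a difference that was not there with the minimum.

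Neighbouring members formed runs. In the order of counted windows, the Bur-0-only windows fell into 502 runs, of which 400 were single windows, 74 had 2 members, 19 had 3, 5 had 4 and 4 had 5. The 102 runs of at least 2 held 245 windows (38.0%) with a median span of 172.5 nt. In 22 of them all members lacked a free start, and in 35 all members had all 36. A Bur-0 read over close SNPs can be counted in more than 1 window. Reads that also matched an overlapping window gave 39.4% of the matches of Bur-0-only windows without a free start. Neighbouring members without a free start may thus count the same reads and are not separate observations. Col-0-only windows fell into 217 runs, of which 195 were single, 18 had 2 members, 3 had 3 and 1 had 4. Their 22 longer runs held 49 windows (20.1%) with a median span of 403 nt.

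The longest Bur-0-only runs were of both kinds. In GILT (AT4G12960, of the gamma-interferon-inducible lysosomal thiol reductase family), 5 members lay within 34 nt, starting between 7584270 and 7584304 on chromosome 4, none with a free start. They held 31, 44, 8806, 120278 and 57 matches with the Bur-0 mother and 64, 44, 115, 21 and 65 with the Col-0 mother. The window with 120278 had 24217 to 32860 matches in each lane of Bur-0×Col-0 and 1 to 10 in each lane of Col-0×Bur-0. The deepest 2 of the 5 were many times higher with the Bur-0 mother, and the other 3 were not. In AT5G45775, 5 members without a free start spanned 57 nt from 18582551 on chromosome 5, and held 1378, 589, 609, 1352 and 1661 matches with the Bur-0 mother and 102, 58, 39, 349 and 92 with the Col-0 mother. By contrast, 5 members from 10775698 on chromosome 1 spanned 405 nt with all 36 starts free in each, and held 43, 16, 85, 122 and 11 matches with the Bur-0 mother and 84, 25, 107, 187 and 30 with the Col-0 mother. Every one of these 5 had more matches with the Col-0 mother, although no match was to Col-0. The run from 19337084 on chromosome 1 had 4 members with 96, 1223, 214 and 19 matches with the Bur-0 mother and 200, 3232, 1179 and 115 with the Col-0 mother.

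Among the Col-0-only runs, that with 4 members spanned 1313 nt from 1528554 on chromosome 2, with 20, 17, 15 and 33 matches with the Bur-0 mother and 21, 41, 31 and 61 with the Col-0 mother. A run of 3 within 84 nt from 6586036 on chromosome 4 held 205, 167 and 26 matches with the Bur-0 mother and 242, 253 and 46 with the Col-0 mother. A run of 3 from 10373080 on chromosome 5 spanned 8422 nt and held 420, 288 and 45 matches with the Bur-0 mother and 147, 86 and 62 with the Col-0 mother. The first 2 of these were higher with the Bur-0 mother although no match was to Bur-0.

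Members of both classes also followed each other. Taking either class, a grouping added after the data were seen, gave 155 stretches of at least 2 members, and 67 of these held both classes. Stretches follow the order of counted windows without a limit of distance, and the mixed ones had a median span of 998 nt and a largest of 629012 nt. The mixed stretches held 121 Bur-0-only windows (18.8%) and 91 Col-0-only windows (37.3%), and 82.5% of these 212 windows had all 36 starts free. The totals of 51 of the 67 (76.1%) lay within 2-fold between the crosses, beside 75.8% of all counted windows with all 36 starts free. The first share is of sums over the members of a stretch and the second of single windows, so they are not like measures. The longest had 10 members from 23659453 on chromosome 1 across 1163 nt, 8 of them Bur-0-only and the sixth and last Col-0-only. They held 13 to 79 matches with the Bur-0 mother and 13 to 91 with the Col-0 mother, and each had a similar count in both crosses. At the seventh, 79 and 91 matches were all to Bur-0, and at the sixth, 22 nt before it, 22 and 29 were all to Col-0. Within 1 stretch the matched accession thus switched between windows less than 36 nt apart, while the totals per cross stayed alike.

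**Figure D4:**
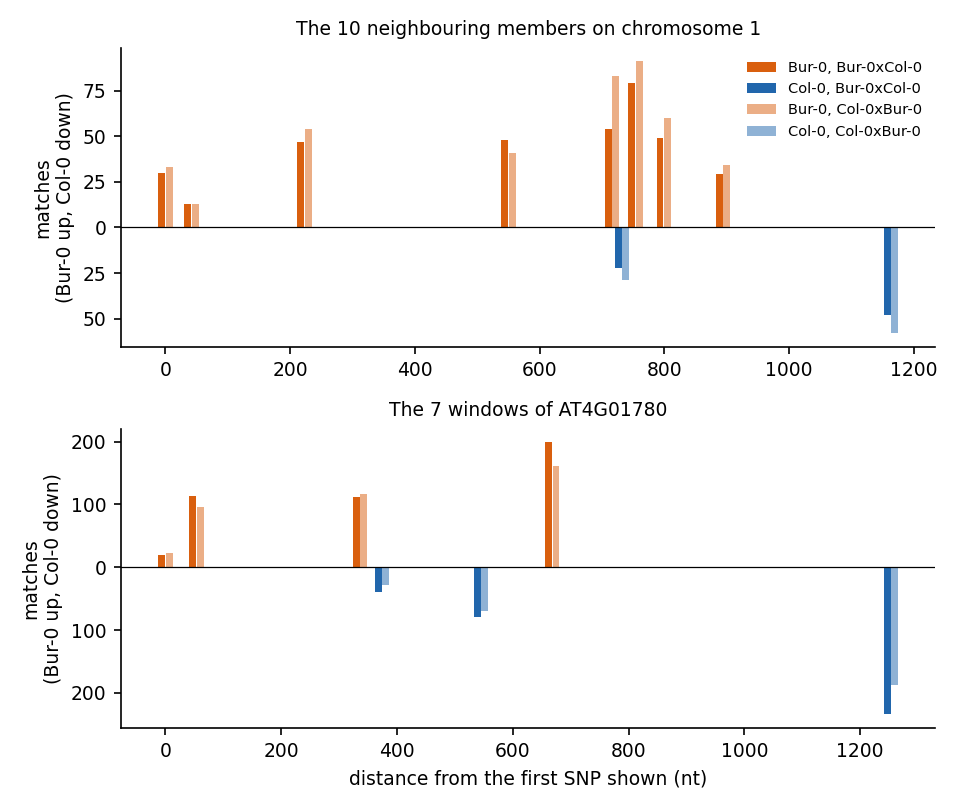
Matches to Bur-0 (orange, up) and Col-0 (blue, down) in Bur-0×Col-0 (full colour) and Col-0×Bur-0 (pale) by distance from the first SNP, for the 10 neighbouring members on chromosome 1 and for the 7 windows of AT4G01780. Each window is matched by one accession in both crosses, apart from single matches in the last 2 windows of AT4G01780, and its full and pale bars are of similar height.

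The nearest counted window more than 35 nt away, which shares no read with the member, was often itself a member. Of all counted windows, 0.968% had a Bur-0-only and 0.432% a Col-0-only window there. For Bur-0-only windows with all 36 starts free it was Bur-0-only in 28.8%, Col-0-only in 17.1% and a window with both accessions in 54.1% (95% Wilson interval 48.6% to 59.5%), at a median distance of 657.5 nt. For Col-0-only windows it was Bur-0-only in 24.2%, Col-0-only in 13.9% and matched by both in 61.9% (55.7% to 67.8%). For Bur-0-only windows without a free start it was matched by both in 92.9% (88.1% to 95.9%), at a median distance of 57 nt. Windows without a free start thus sat among windows with both accessions, and the others often next to members of either class.

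**Figure D5:**
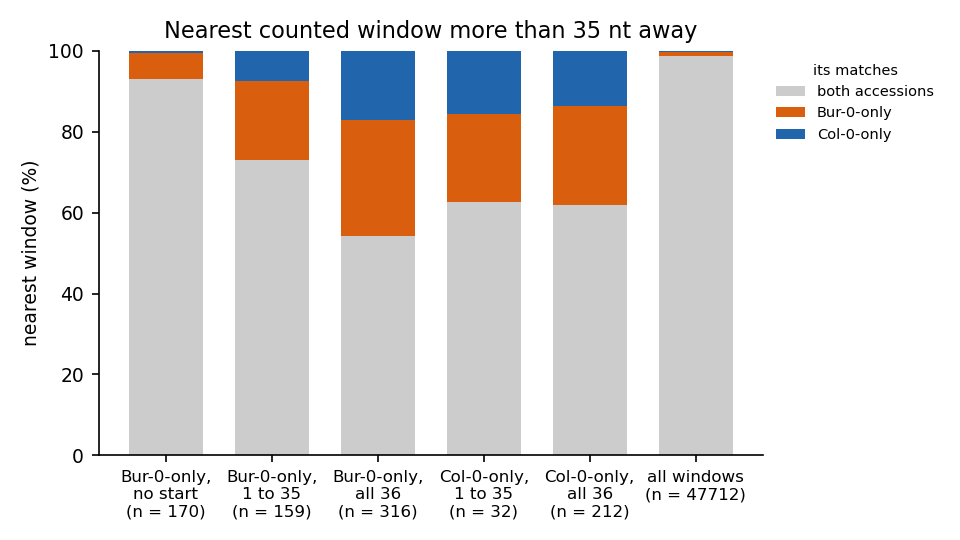
Composition of the nearest counted window more than 35 nt away, in percent of the windows of each group, by class and number of free starts, with the number of windows under each bar. The share with both accessions was 92.9% for Bur-0-only windows without a free start, 54.1% for those with all 36 free, 61.8% for Col-0-only windows with all 36 and 98.6% for all counted windows.

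The nearest window with both accessions within 1000 nt, also where a member lay closer, often had a high paternal share. Beside Bur-0-only windows with all 36 starts free, the Bur-0 share with the Col-0 mother was over 20% in 37 of 91 neighbours (40.7%), and the Col-0 share with the Bur-0 mother in 25.3%. Beside windows with both accessions and all 36 starts free these shares were over 20% in 5.14% and 4.02%.

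Match positions were counted as combinations of start and strand. Of the 72 possible, Bur-0-only windows with all 36 starts free used a median of 17, those with 1 to 35 free starts 17 and those without a free start 30. Col-0-only windows used 18 and windows with both accessions 29, or 31 where all 36 starts were free. Members with all 36 starts free also had lower totals than windows with both, whose medians with all 36 free were 48 and 55 matches, and the part of depth was not tested. A single combination gave over 50% of the matches in 14.7% of Bur-0-only, 13.5% of Col-0-only and 3.19% of the windows with both. Matches were found in all 8 lanes for 90.9%, 91.8% and 94.8%. Some reads of members also matched another window elsewhere in the genome. With all 36 starts free, such reads gave at least 10% of the matches in 38 Bur-0-only windows (12.03%) and 18 Col-0-only windows (8.49%). Among windows with both accessions and all 36 starts free the share was 0.625%. The Col-0-only windows at 7885896 and 17151135 on chromosome 5 shared 238 of their 239 matches with a window elsewhere, and each held 10 matches with the Bur-0 mother and 229 with the Col-0 mother. The part of such reads in the results was not tested.

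Matches to the other accession stayed rare in lanes that had not been used to choose the windows. When members were chosen in 2 lanes of each cross, 8.11% to 13.7% of the Bur-0-only windows had any Col-0 match in the other 2 lanes, over the 6 choices of lanes. For Col-0-only windows 7.27% to 18.5% had any Bur-0 match there. These made up 0.0272% to 0.0971% of the matches of Bur-0-only windows and 0.0971% to 0.179% of those of Col-0-only windows. The Bur-0-only values include windows without a free start, which can hold Bur-0 matches only, so their outcome was fixed. Over all lanes such windows held 221481 of the 296349 matches of Bur-0-only windows, and the values were not split by free starts. Lanes are runs of 1 library and not replicates of a cross.

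The rule has an edge on both sides. Exactly 10 matches in a cross were held by 45 Bur-0-only and 29 Col-0-only windows, and 66 and 14 further windows failed with 9. Exactly 1 match to the other version kept out 120 windows otherwise matched by Bur-0 and 41 otherwise matched by Col-0. The deepest of these, at 14270691 on chromosome 5, was matched 45826 times by Bur-0 and 0 times by Col-0 with the Bur-0 mother, and 56068 times and 1 time with the Col-0 mother. The next, at 6767444 on chromosome 1, was matched 4018 times by Bur-0 and 1 time by Col-0 with the Bur-0 mother, and 2378 times and 0 times with the Col-0 mother.

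The deepest Bur-0-only windows after those of GILT divided in the same way. BAN (AT1G61720), which encodes the anthocyanidin reductase of seed coat tannin synthesis, had a window at 22795755 on chromosome 1 without a free start, with 7562 matches with the Bur-0 mother and 55 with the Col-0 mother. HOG1 (AT4G13940), an S-adenosylhomocysteine hydrolase, had one with 2673 and 55 matches, the histone H2B gene HTB2 (AT5G22880) one with 2546 and 58, and the polyubiquitin gene UBQ10 (AT4G05320) one with 2499 and 29. A window at 3784250 on chromosome 5 held 3807 and 62. None of these had a free start, and histone and polyubiquitin genes have close copies between which reads may be shared. For the HTB2 and UBQ10 windows, 0 matches came from reads that also matched a window elsewhere. Copies without a window would not be seen in this count, and the part of shared reads was not tested. The deep windows with all 36 starts free were those at 21112502 on chromosome 1, with 1535 and 2378 matches, and at 15671072 on chromosome 5. The first of these held 337 to 408 matches in every lane of Bur-0×Col-0 and 435 to 712 in every lane of Col-0×Bur-0. Taken alone, its 0 Col-0 matches allow a share of up to 0.195% with the Bur-0 mother and 0.126% with the Col-0 mother. These limits do not allow for the choice of the window by that 0.

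Ratios at the low end were found in Bur-0-only windows of PME7 (AT1G44980, a pectin methylesterase) with 74 and 501 matches, and at 130474 on chromosome 2 with 10 and 96. These were 8.57-fold and 12.2-fold higher with the Col-0 mother, in which Bur-0 was the father. At the high end, after GILT and BAN, the window of SKS2 (AT5G51480) had 918 matches with the Bur-0 mother and 10 with the Col-0 mother, with 1 free start.

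The deepest Col-0-only windows held large counts in both crosses. At 6171391 on chromosome 4, 6451 matches with the Bur-0 mother and 5061 with the Col-0 mother were all to Col-0, on 65 combinations of start and strand. Taken alone, the 0 Bur-0 matches allow shares of up to 0.0465% and 0.0593%, again without allowing for the choice by that 0. Lane 1 of Col-0×Bur-0 gave 1871 of its matches and the other lanes of that cross 781 to 1221. Its nearest window, 190 nt away, was matched almost only by Bur-0, with 5343 Bur-0 and 6 Col-0 matches with the Bur-0 mother and 3585 and 1 with the Col-0 mother. At 6767327 on chromosome 1, 3697 and 3543 matches were all to Col-0, and 117 nt farther lay the window at 6767444 with nearly all matches to Bur-0. Col-0-only windows with 1052 and 884 matches at 7272396 on chromosome 4, and with 605 and 451 at 11757558, likewise had scaled totals 1.06-fold apart between the crosses. Reads that also matched elsewhere gave 1550 of the matches of the first of these.

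Other deep Col-0-only windows had few matches where Col-0 was the father. AT1G78040 had one at 29350841 on chromosome 1 with 10 matches with the Bur-0 mother and 1982 with the Col-0 mother, a 251-fold difference, with 24 free starts. In the next window of that locus, 40 nt away, Bur-0 and Col-0 had 2775 and 25 matches with the Bur-0 mother and 9 and 3871 with the Col-0 mother. ATP3 (AT2G33040), the gamma subunit of the mitochondrial ATP synthase, had one at 14025920 on chromosome 2 with 31 and 611 Col-0 matches. Its windows with both accessions and all 36 starts free had 30 to 35 Col-0 matches with the Bur-0 mother and 549 to 787 with the Col-0 mother, and 622 to 1108 Bur-0 matches with the Bur-0 mother. The Col-0 matches of this member were thus like those of the rest of the locus, and its Bur-0 matches were 0. A window at 6581810 on chromosome 5 held 67 and 1040 Col-0 matches, and AT5G54760 had one with 15 and 344.

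Genes could be assigned only where a listed locus was placed by its summed counts. Of 2147 listed loci 2053 were placed, and they covered 35.7% of the counted windows. They held 112 of the Bur-0-only windows (17.4%), in 67 loci, and 24 of the Col-0-only windows (9.84%), in 23 loci. Of the 112, 88 had no free start and 11 had all 36. Among windows with all 36 starts free in placed loci, 0.119% were Bur-0-only and 0.172% Col-0-only, below the 0.986% and 0.662% of all such windows. Of the placed loci, 1915 came from the maternal list, chosen on these same counts for maternal excess in both crosses. That choice works against loci matched by one accession in both crosses, so these lower shares are not independent of it. Of the 82 loci with members, 77 also had a window with both accessions more than 35 nt from every member, and 8 had members of both classes. Most members with free starts thus lay outside the placed loci.

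The 10 loci with the most members were mostly deeply covered genes with closely spaced SNPs. AT1G24510 had 6 Bur-0-only members and 1 Col-0-only member. Its 5 members without a free start held 286 to 553 matches with the Bur-0 mother and 16 to 36 with the Col-0 mother, whereas its Bur-0-only member with all 36 free, at 8685827 on chromosome 1, held 107 and 90. Its windows with both accessions and all 36 starts free had 109 to 431 Bur-0 matches with the Bur-0 mother and 4 to 32 with the Col-0 mother. The member with all 36 free was thus the one whose Bur-0 matches were alike in both crosses. ATP3 had 4 Bur-0-only members beside its Col-0-only one, with 744 to 1584 matches with the Bur-0 mother and 27 to 38 with the Col-0 mother. HTB2 had 4, with 1556 to 2546 and 40 to 58, and the peroxiredoxin gene TPX1 had 4. The proteasome subunit gene ATS9, the mitochondrial channel gene VDAC2 and AT1G72020 had 3 each, and GILT and AT5G45775 had the runs given above. AT4G01780 was the remaining one, with 3 Bur-0-only and 2 Col-0-only members, all with all 36 starts free.

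Members were frequent in loci listed for paternal bias. This list was chosen on these libraries, so it is not independent of the counts. Its 109 placed loci held 134 counted windows, of which 12 were Bur-0-only and 7 Col-0-only, 14.2% in all, against 1.86% of all counted windows. In the part of the maternal list used here, members were 0.681% of 16882 windows. Of the list of maternal genes retained for the endosperm, AT1G73560 and AT4G29640 had 1 member each, among 74 windows, and the corresponding paternal list had 0 among 32. The 19 members of the paternal list lay in 9 loci, and 16 of them had all 36 starts free. In 4 of the 9 loci, every counted window was a member.

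A Bur-0-only and a Col-0-only window in the same locus add up to matches of both accessions in both crosses, although no single window held both. In PME7 the Bur-0-only window had 74 and 501 matches and the Col-0-only window 105 and 405. Summed, this made the paternal share 58.7% with the Bur-0 mother and 55.3% with the Col-0 mother. AT3G45800 had 20 and 43 Bur-0 matches in one window and 44 and 40 Col-0 matches in another, 125 nt away, and summed paternal shares of 68.8% and 51.8%. AT4G05140 had 31 and 77 in its Bur-0-only window and 53 and 55 in its Col-0-only window, and AT2G28220 had 73 and 24 and 52 and 14.

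In AT4G01780, 5 of the 7 windows were members, and each of the others had 1 match to the other version. Its 3 Bur-0-only windows held 20, 113 and 112 matches with the Bur-0 mother and 22, 96 and 117 with the Col-0 mother, and its 2 Col-0-only windows held 40 and 79, and 29 and 69. Of its other windows, one held 199 matches to Bur-0 and 1 to Col-0 with the Bur-0 mother and 162 and 0 with the Col-0 mother. The last had 0 Bur-0 and 234 Col-0 matches with the Bur-0 mother and 1 and 188 with the Col-0 mother. The summed paternal shares were 44.4% and 58.2%. FUM2 (AT5G50950), a fumarase, had a Col-0-only window with 210 and 232 matches. Without it, the locus held 285 matches to Bur-0 and 1 to Col-0 with the Bur-0 mother, and 250 Bur-0 and 4 Col-0 matches with the Col-0 mother. Its paternal shares were 42.5% and 51.4% with the member and 0.350% and 98.4% without it. In BGLU9 (AT4G27820), a beta-glucosidase, the shares were 42.2% and 57.8% with its 2 Bur-0-only members and 63.0% and 36.9% without them. In AT1G61688 they were 35.7% and 39.5% with and 40.4% and 34.3% without, so there the members changed them little.

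Members were found on all chromosomes. Bur-0-only windows were 1.36%, 1.41%, 1.12%, 1.76% and 1.21% of the counted windows of chromosomes 1 to 5, and Col-0-only windows 0.441%, 0.720%, 0.548%, 0.609% and 0.371%. The 528 members with all 36 starts free were spread over all but 5 of 121 megabase bins. The most were in the bin from 6 Mb on chromosome 4, with 20, which were 5.41% of its windows with all 36 starts free. The highest shares were in bins with few such windows, at 6 of 6 from 3 Mb on chromosome 2, 5 of 6 from 13 Mb on chromosome 3 and 5 of 8 from 11 Mb on chromosome 5. The bin from 12 Mb on chromosome 5 had 9 of 27. In all, Bur-0-only windows gave 9.75% of the Bur-0 matches with Bur-0 as father and 3.07% of those with Bur-0 as mother. The GILT window at 7584299 on chromosome 4 alone held 120278 of their 251165 matches with Bur-0 as mother. Col-0-only windows gave 6.38% of the Col-0 matches with Col-0 as father and 0.472% of those with Col-0 as mother. The rule asks for at least 10 matches also with the accession as father, so the higher paternal shares are not independent of that choice.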

How the data were processed

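Whole F1 seeds at 4 DAP of both cross directions were sequenced with 36-nt reads. The authors matched the reads with vmatch, with up to 2 mismatches, to 71-nt TAIR8 windows around Bur-0 SNPs, made once with each allele, and kept matches unique in that set. The deposited files list 1 match per line, without mismatch numbers, bases, genes or normalization. They hold no score or count, so matches were counted here per window, version, cross and lane. A read can give more than 1 match. Lane 1 of Bur-0×Col-0 held 2227997 matches from 2072591 reads, and lane 1 of Col-0×Bur-0 held 1830948 from 1823066. Totals were scaled by matches and not by reads, and the effect of this on the ratios was not tested. Coordinates are TAIR8 window starts as in the files. Tools were Matplotlib 3.10.9, SciPy 1.17.1, pandas 2.3.3 and NumPy 2.4.6 under Python 3.11.15. The steps were tested on simulated data.

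The 8 lanes were summed per cross, and windows where both crosses reach 10 matches are called counted windows. The members and lists were chosen with earlier results of these data known. With 1 library per cross there was no test, and counts are beside the share of all windows. A count of 0 allows the share that 3 matches would make, a limit that does not allow for the choice of members by their 0. Loci listed in the supplementary tables were placed as the run of neighbouring windows whose 4 summed allele counts equal those listed, so their sums equal the listed ones by construction. Symbols are from TAIR10.1, which held 2052 of the 2053. Planned family words were searched in symbols and synonyms only, so loci named by a code alone could not match. They matched 10 receptor-like kinase, 7 ribosomal, 5 lipid transfer, 1 F-box and 1 disease resistance loci, of which 0 had members, and nothing is drawn from this. Named windows are, per class, the 10 with most matches and the 5 with the largest and smallest ratio between crosses, the 5 runs and the 10 loci with most members, and windows beside the rule's edge, of which a part is printed. Loci of the paternal list were named after their values were seen. Bases at the SNPs were planned but not analysed here. The alternatives changed the minimum, the counting of repeated starts, lanes, neighbours and scaling.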

Additional observations from a re-analysis of the deposited data

How the results depend on the processing

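The number of members followed the minimum: with 5, 20 and 50 matches in each cross there were 1228, 393 and 176 Bur-0-only windows and 374, 149 and 65 Col-0-only windows. Without any other matched window within 35 nt, 316 Bur-0-only windows were left. Leaving out 1 lane of both crosses gave 538 to 574 Bur-0-only and 198 to 206 Col-0-only windows. The share in runs of at least 2 was 25.7% for Bur-0-only and 11.1% for Col-0-only windows in the order of all windows with a match, and 31.6% and 15.2% with neighbours at most 1000 nt apart. It was 33.2% for Bur-0-only windows without another matched window within 35 nt, and stretches of either class, added after the data were seen, held 47.4% and 46.7%. The median distance to the next counted window was 120 nt for Bur-0-only and 422 nt for Col-0-only windows. The median log2 ratio, accession as mother over as father, was -0.20 over all Bur-0-only and 0.61 over all Col-0-only windows. Scaled by the median of all counted windows it was 0.14 and 0.27, so its sign for Bur-0-only windows depends on the scaling. It was -0.49 for Bur-0-only windows with all 36 starts free, a subset added later, and 0.44 for Col-0-only windows with each start and strand counted once per lane. The nearest window had both accessions for 75.04% and 68.4% when it needed 20 matches, for 62.9% and 45.7% within 1000 nt, and for 54.1% of Bur-0-only windows with all 36 starts free. The other 25 of 50 alternatives stayed within 1.5 times the number or within the 95% interval. Depth limits the shallow members, since 0 of 10 matches allows a share of up to 30%. No paired analysis was possible because each cross has 1 library.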
